A study of Mus musculus with 10 samples.

Results

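The lymphocyte genes described here are Cd3d, Cd3e, Cd4 and Cd8a of T cells, Ms4a1, Cd79a and Cd79b of B cells, and Nkg7 and Gzma of cytotoxic cells, 9 of the 54532 genes in the deposited table. They were chosen by name. The mouse lungs came from C57/BL6 pups of either sex that were wild type by their labels. At P7, 5 pups of the increased pulmonary blood flow (IncPBF) group had a fistula made by needle puncture between abdominal aorta and inferior vena cava, and 5 sham pups had the same laparotomy without the puncture. Lungs were taken at P14 for bulk RNA-sequencing, which pools the RNA of all cells of the organ, so that fewer lymphocytes and less RNA per lymphocyte cannot be told apart. The lungs are numbered as in the table, and no label says whether pups of a group shared a litter or a day of surgery, so p values measure the spread between these lungs only.

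The T cell receptor is carried to the surface by the CD3 chains, which pass its signal into the cell, and the coreceptors CD4 and CD8 tie helper T cells and cytotoxic T cells to the class of MHC molecule that they read. The B cell receptor is a membrane antibody held by CD79A and CD79B, which play the part of CD3. Cytotoxic T cells and natural killer (NK) cells kill by releasing granules of perforin and granzymes. In the lung of a mouse pup lymphocytes are a minority of cells and their number is still rising in the weeks after birth.

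None of the 9 genes passed the test between the groups after correction over all genes. The 7 T and B cell genes had a lower mean in the IncPBF group, by 0.08 to 0.52 on the log2 scale, and both cytotoxic genes had a higher mean. Of the 9 members, 0 were called lower and 0 higher in limma at an adjusted p under 0.05, where 16.2% of the 15388 genes tested were called lower and 16.1% higher. At an unadjusted p under 0.05, 2 members (Cd4 and Cd79a) were lower and 0 higher, where 21.4% of genes tested were lower and 21.7% higher. In none of the 9 were the groups free of overlap, against 11.2% of genes tested with every IncPBF lung below and 12% with every IncPBF lung above. Of all genes tested, 47.9% had a negative log2 fold change. Genes of a cell type can move together across the same lungs, so the signs of the members are not separate observations. The median log2 fold change was -0.195 over the 9 members and 0.0145 over all genes tested. Values are FPKM, fragments scaled to the length of the gene and the depth of the lung, all 9 genes passed the minimum mean FPKM of 0.5, and fold changes are on the scale of log2(FPKM + 0.1), which understates those of low genes.

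**Figure D1:**
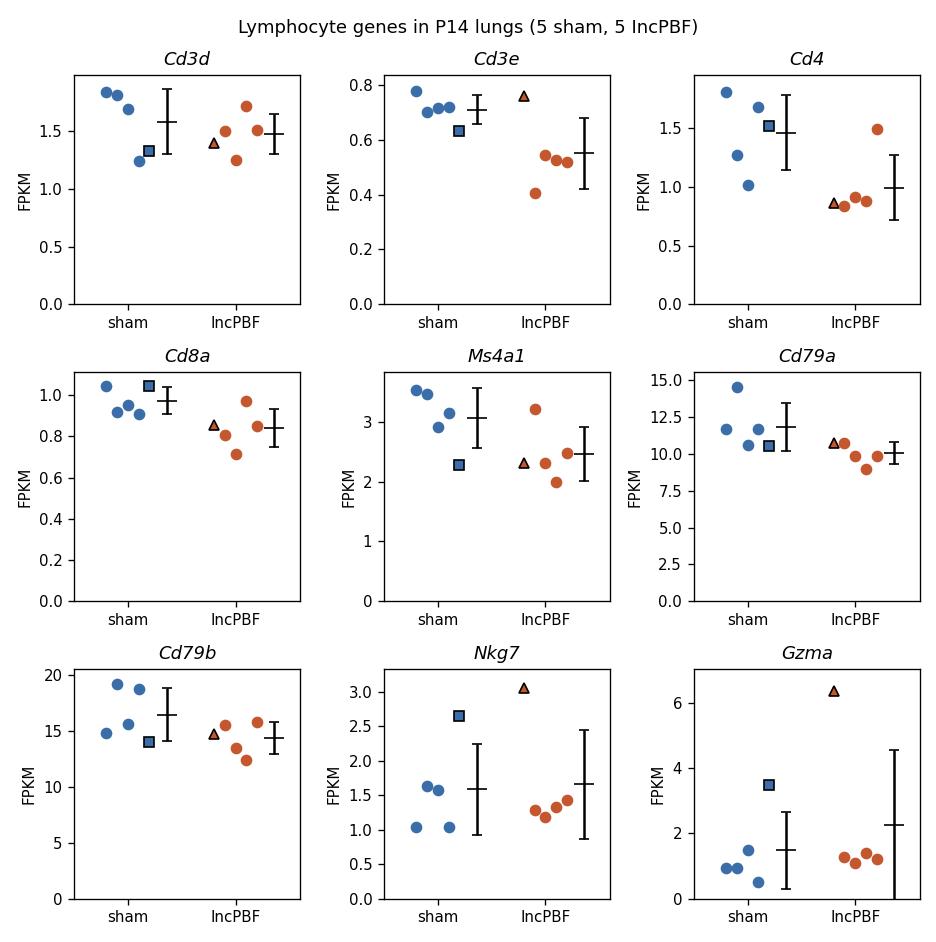
FPKM of the 9 lymphocyte genes in each lung, with sham lungs in blue and IncPBF lungs in orange, and with mean and SD of each group in black (n = 5 per group, bars end at 0 where the SD is larger than the mean). The triangle is IncPBF lung 1 and the square sham lung 5, which are the 2 highest lungs for Nkg7 and for Gzma; the groups overlap in all 9 panels.

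Depth was 16103423 to 20318525 fragments on genes in IncPBF pups and 18171494 to 19400575 in sham pups. Sex-linked RNA differed between the groups: Xist was 52.4 to 66.5 FPKM in IncPBF lungs 2 to 5, 0.0144 FPKM in IncPBF lung 1 and no more than 0.0770 FPKM after sham surgery. Sex and surgery can therefore be told apart by IncPBF lung 1 alone. A fit with log2 Xist as a covariate in effect sets that lung against the sham lungs. Scgb1a1, a secretory protein of the airway, was 128 FPKM in sham lung 5 and 4802 to 11743 FPKM in the other lungs. The summed FPKM of 5 erythroid genes was 250.9 to 1927 in IncPBF pups and 1458 to 2442 in sham pups, and 3 of them (Hbb-bt, Hba-a1 and Alas2) fell by 1.50, 1.58 and 1.67 on the log2 scale (adjusted p = 0.0449, 0.0237 and 0.0151 from limma), though globin copies may share reads. The part of these differences in the values below was not tested.

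Cd3d and Cd3e encode the delta and epsilon chains of CD3 and lie near each other on chromosome 9 of GRCm38, Cd3d from 44981786 to 44987339 and Cd3e from 44998740 to 45009627. Cd3d was 1.40, 1.50, 1.25, 1.72 and 1.51 FPKM in IncPBF lungs 1 to 5 and 1.84, 1.81, 1.70, 1.24 and 1.33 FPKM in sham lungs 1 to 5. Both groups covered nearly the same range, and the log2 fold change was -0.08 (95% interval -0.38 to 0.21, adjusted p = 0.668 from limma). Cd3e was 0.761, 0.405, 0.544, 0.526 and 0.519 FPKM in IncPBF pups and 0.778, 0.702, 0.716, 0.718 and 0.633 FPKM in sham pups. IncPBF lungs 2 to 5 lay below every sham lung, and IncPBF lung 1, the lung without Xist, lay among the sham lungs. The log2 fold change of Cd3e was -0.33 (95% interval -0.74 to 0.07, adjusted p = 0.193 from limma). With log2 Xist as a covariate, in effect IncPBF lung 1 against the sham lungs, it was 0.07. The CD3 values rest on 42 to 62 fragments per lung for Cd3d and 31 to 60 for Cd3e.

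The promoters of the pair are shown because the genes are neighbours that encode partners of 1 complex, yet only Cd3e set IncPBF lungs 2 to 5 below the sham lungs. They run from 250 bases before to 50 after the start in RefSeq (GRCm38.p6), and 6 of the 9 members (Cd3d, Cd3e, Cd8a, Cd79a, Nkg7 and Gzma) matched. Capitals mark the E-box CAGGTG or its reverse complement CACCTG, and the RUNX motif TGTGGT or its reverse complement ACCACA, searched on both strands. Of the 32851 promoters in the set, 20.2% hold this E-box and 16.8% this RUNX motif. The Cd3d promoter lies at chr9:44981536-44981835 on the plus strand and that of Cd3e at chr9:45009562-45009861 on the minus strand, each with 1 E-box and no RUNX match.
Cd3d: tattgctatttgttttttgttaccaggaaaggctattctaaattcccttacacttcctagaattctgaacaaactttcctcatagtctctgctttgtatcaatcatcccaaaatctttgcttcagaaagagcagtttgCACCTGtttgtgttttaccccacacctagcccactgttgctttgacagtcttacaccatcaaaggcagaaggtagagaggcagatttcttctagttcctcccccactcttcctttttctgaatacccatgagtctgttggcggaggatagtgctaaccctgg
Cd3e: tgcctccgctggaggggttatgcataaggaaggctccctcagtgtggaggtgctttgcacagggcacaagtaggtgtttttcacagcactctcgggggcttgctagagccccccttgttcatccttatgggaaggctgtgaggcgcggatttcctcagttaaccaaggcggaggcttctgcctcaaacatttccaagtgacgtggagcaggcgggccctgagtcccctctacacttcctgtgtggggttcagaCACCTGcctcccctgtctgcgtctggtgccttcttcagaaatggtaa

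Cd4 and Cd8a, the coreceptors, both had lower means in the IncPBF group. Cd4 (chromosome 6 from 124864692 to 124888221) was 0.860, 0.834, 0.913, 0.877 and 1.49 FPKM in IncPBF lungs 1 to 5 and 1.81, 1.28, 1.01, 1.69 and 1.52 FPKM in sham lungs 1 to 5. IncPBF lung 5 lay within the sham range and the other 4 IncPBF lungs below it. Sham lung 1 was the highest and sham lung 3 the lowest sham lung, and IncPBF lung 5 the highest IncPBF lung. The macrophage genes Mrc1 and Adgre1, chosen after their values were seen, had the same 3 lungs in these places. No other gene of the macrophage list had all 3 lungs there. Csf1r, Siglecf, C1qa and Cd68 were highest in sham lung 5 among the sham lungs, at 24.6, 2.57, 34.2 and 12.5 FPKM. Sham lung 1 was also the highest sham lung for Cd3d and Cd3e, but other lungs were lowest among the sham lungs and highest among the IncPBF lungs. The part of macrophages in the Cd4 values was not tested. Cd4 had the largest negative fold change of the 9 genes, -0.52 (95% interval -0.94 to -0.09), with an unadjusted p of 0.0210 and an adjusted p of 0.0608 from limma. The adjusted p was 0.0158 without IncPBF lung 5, 0.0232 without sham lung 3 and 0.0475 in limma-voom on the recovered fragments, with a range of 0.0158 to 0.330 over 23 alternatives. Cd8a (chromosome 6 from 71373427 to 71379173) was 0.714 to 0.972 FPKM in IncPBF pups, with a median of 0.847, and 0.906 to 1.04 FPKM in sham pups, with a median of 0.949. Only IncPBF lung 4 reached the sham range, the log2 fold change was -0.19 (95% interval -0.48 to 0.09) and the adjusted p was 0.276 from limma. The 48 to 68 fragments of Cd8a varied between lungs of a group no more than counting would give, with a ratio of observed to counting variance of 0.670 in IncPBF pups and 0.297 in sham pups. The same ratio was 6.35 and 5.27 for Cd4.

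Cd79a and Cd79b stood at the highest levels of the 9 genes per length. Cd79b (chromosome 11 from 106311341 to 106314762) was 12.4 to 15.8 FPKM in IncPBF pups and 13.97 to 19.2 FPKM in sham pups, and Cd79a (chromosome 7 from 24897381 to 24902197) was 10.8, 10.8, 9.88, 8.99 and 9.88 FPKM in IncPBF lungs 1 to 5 and 11.7, 14.5, 10.6, 11.7 and 10.6 FPKM in sham lungs 1 to 5. IncPBF lungs 3 to 5 lay below all sham lungs for Cd79a, and sham lung 2 was the highest lung. The log2 fold change was -0.22 for Cd79a (95% interval -0.42 to -0.03, adjusted p = 0.0779 from limma) and -0.19 for Cd79b (95% interval -0.41 to 0.03, adjusted p = 0.181 from limma). Ms4a1, which encodes the surface protein CD20 and lies on chromosome 19 from 11249675 to 11266241, was 2.31, 3.21, 2.32, 2.00 and 2.48 FPKM in IncPBF pups and 3.52, 3.47, 2.92, 3.15 and 2.28 FPKM in sham pups. Sham lung 5 fell within the range of the IncPBF lungs and IncPBF lung 2 within that of the other sham lungs. The log2 fold change was -0.31 (95% interval -0.62 to 0.00, adjusted p = 0.119 from limma), and the adjusted p was 0.0375 without sham lung 5 and 0.0422 without IncPBF lung 2. These values rest on 213 to 404 fragments per lung for Ms4a1, 226 to 399 for Cd79a and 306 to 517 for Cd79b.

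**Figure D2:**
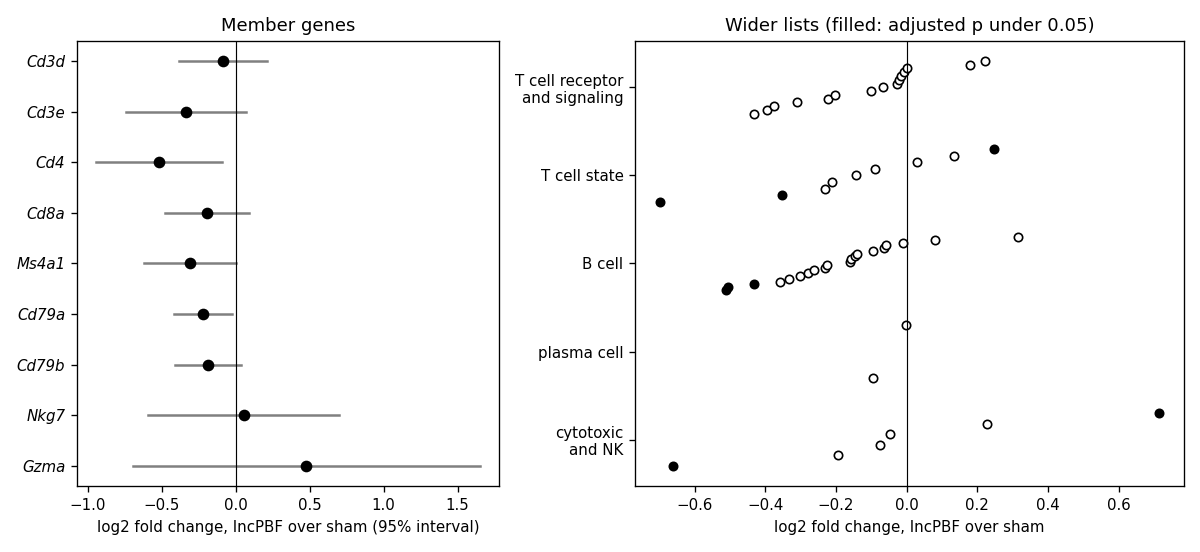
Log2 fold change of IncPBF over sham lungs from limma (n = 5 per group), on the left for the 9 lymphocyte genes with 95% intervals and on the right for each tested gene of 5 wider lymphocyte lists. The intervals of Cd4 and Cd79a lie below 0 before correction; filled points on the right are the 6 genes called lower and the 2 called higher at an adjusted p under 0.05.

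The cytotoxic genes parted 2 lungs from the others and not the groups. Gzma (chromosome 13 from 113093825 to 113100981), the gene of granzyme A, was 6.38, 1.27, 1.08, 1.38 and 1.20 FPKM in IncPBF lungs 1 to 5 and 0.942, 0.950, 1.48, 0.520 and 3.48 FPKM in sham lungs 1 to 5. IncPBF lung 1 was the highest, on 124 fragments, sham lung 5 came next, on 61 fragments, and the other 8 lungs had 10 to 28. Nkg7 (chromosome 7 from 43437073 to 43438249), which encodes a protein of cytotoxic granules, was 3.06, 1.28, 1.18, 1.33 and 1.42 FPKM in IncPBF pups and 1.04, 1.63, 1.57, 1.03 and 2.64 FPKM in sham pups. IncPBF lung 1 and sham lung 5 were again the highest, in the same order. The log2 fold change was 0.48 for Gzma (95% interval -0.69 to 1.65, adjusted p = 0.528 from limma) and 0.05 for Nkg7 (95% interval -0.59 to 0.70, adjusted p = 0.906 from limma). Without IncPBF lung 1 they were 0.02 and -0.18, without sham lung 5 they were 0.84 and 0.25, and without both lungs 0.38 and 0.02, with no adjusted p under 0.05 in any of these fits. With log2 Xist as a covariate, in effect IncPBF lung 1 against the sham lungs, they were 2.29 and 0.99.

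The promoters of Nkg7 and Gzma are shown because both genes were highest in the same 2 lungs. The Nkg7 promoter lies at chr7:43436888-43437187 on the plus strand, with 1 RUNX match and no E-box, and that of Gzma at chr13:113100932-113101231 on the minus strand, with 1 RUNX match and 2 E-boxes. Capitals are as above, and a match is a run of letters and not a known binding site.
Nkg7: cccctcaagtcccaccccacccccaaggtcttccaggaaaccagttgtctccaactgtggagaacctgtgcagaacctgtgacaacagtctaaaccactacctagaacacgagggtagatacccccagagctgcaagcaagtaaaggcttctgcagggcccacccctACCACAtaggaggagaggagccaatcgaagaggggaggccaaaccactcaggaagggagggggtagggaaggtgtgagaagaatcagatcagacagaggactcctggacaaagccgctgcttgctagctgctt
Gzma: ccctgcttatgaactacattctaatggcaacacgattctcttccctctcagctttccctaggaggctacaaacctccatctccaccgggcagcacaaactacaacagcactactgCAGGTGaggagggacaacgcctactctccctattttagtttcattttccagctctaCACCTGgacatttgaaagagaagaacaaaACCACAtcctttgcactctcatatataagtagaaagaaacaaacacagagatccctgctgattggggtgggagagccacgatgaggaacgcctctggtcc

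Other genes of cytotoxic cells were compared in these 2 lungs, of which Ccl5, Klrd1, Ctsw, Il2rb, Gzmk and Gzmm were chosen after their values were seen. Gzmb, the gene of granzyme B, was 1.33 FPKM (37 fragments) in IncPBF lung 1, 0.600 FPKM (15 fragments) in sham lung 5 and at most 0.377 FPKM (10 fragments) in the other 8. The chemokine gene Ccl5 was 4.20 FPKM in IncPBF lung 1, 5.62 FPKM in sham lung 5 and 1.45 to 2.40 FPKM elsewhere. The receptor gene Klrd1 was also highest in IncPBF lung 1, at 1.62 FPKM, but sham lung 5 was at 1.12 FPKM, near the lower end of the 1.05 to 1.59 FPKM elsewhere. Ctsw, a protease gene of cytotoxic cells, was 1.85 and 1.49 FPKM and Il2rb, a receptor gene of NK cells and T cells, 1.56 and 1.41 FPKM in the same lungs, within the range of the other 8. Prf1, the gene of perforin, had only 3 to 13 fragments in any lung.

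**Figure D3:**
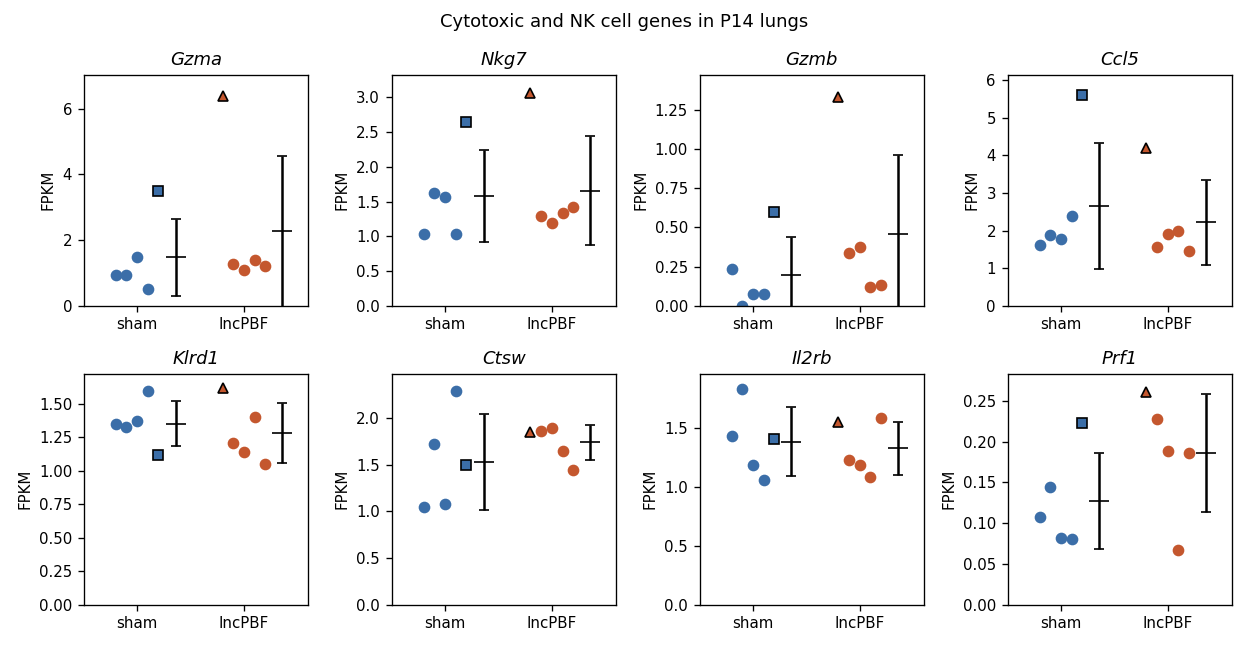
FPKM of 8 cytotoxic and NK cell genes in each lung (sham blue, IncPBF orange, mean and SD in black, n = 5 per group, bars cut at 0). IncPBF lung 1 (triangle) and sham lung 5 (square) are the 2 highest lungs for Gzma, Nkg7, Gzmb and Ccl5 but not for Klrd1, Ctsw, Il2rb and Prf1.

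The wider lists held 83 further genes of T, B, plasma and cytotoxic cells, of which 52 were tested and 31 lay under the minimum mean FPKM. In limma 6 of the 52 were called lower (Il7r, Gata3, Cd22, Ighd, Tnfrsf13c and Gzmm) and 2 higher (Tcf7 and S1pr5), with a median log2 fold change of -0.14. The background shares of genes called are the 16.2% and 16.1% given above. Leaving out any 1 lung did not end the calls of Il7r, Cd22, Ighd, Tnfrsf13c and S1pr5. With 1 lung left out, Gata3 was called only without IncPBF lung 2 or sham lung 3, Tcf7 only without IncPBF lung 4, sham lung 4 or sham lung 5, and Gzmm was not called without IncPBF lung 1, IncPBF lung 4, sham lung 2 or sham lung 4. With log2 Xist as a covariate every call but that of Gata3 was lost, in a fit that rests in effect on IncPBF lung 1.

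Of the list of T cell receptor and signaling genes, 0 of 15 tested were called in either direction at an adjusted p under 0.05 in limma, and 2 were lower at an unadjusted p under 0.05. The receptor chain Trac was 3.86 ± 0.472 FPKM in IncPBF pups and 4.51 ± 0.515 FPKM in sham pups (SD, n = 5 per group), and Trbc2 was 7.995 ± 1.07 against 6.96 ± 1.90 FPKM. Their log2 fold changes had opposite signs, -0.22 and 0.22, neither was called (adjusted p = 0.125 and 0.309 from limma), and Trbc2 may share reads with its close copy Trbc1. Of 9 tested genes of T cell state, Il7r, the receptor of the survival factor interleukin 7, was 1.03, 1.42, 0.882, 0.870 and 1.21 FPKM in IncPBF lungs 1 to 5 and 2.10, 1.97, 2.02, 1.63 and 1.34 FPKM in sham lungs 1 to 5. Only sham lung 5 entered the IncPBF range, and Il7r fell by 0.70 on the log2 scale (standard error 0.16, adjusted p = 0.00822 from limma). Gata3, a transcription factor of helper T cells and innate lymphoid cells, fell by 0.35 (adjusted p = 0.0497 from limma), with 1.25 FPKM in IncPBF lung 1 as its lowest value. Tcf7, a transcription factor of T cells, rose by 0.25 (adjusted p = 0.0405 from limma), but at 23.5 ± 1.53 FPKM against 19.9 ± 2.27 FPKM its level per length was far above that of Cd3d or Cd3e, and it is not a gene of T cells alone.

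Of 20 tested B cell genes, 3 were called lower and 0 higher, a share near the 16.2% of all genes called lower, and 18 had a negative log2 fold change, against 47.9% of all genes tested. These genes were measured in the same lungs and can move together, so their signs are not separate observations. Ighd, the constant region of the IgD receptor of mature B cells, was 4.55, 4.94, 4.36, 4.39 and 4.03 FPKM in IncPBF lungs 1 to 5 and 5.37, 8.02, 6.99, 6.66 and 5.14 FPKM in sham lungs 1 to 5. The highest IncPBF lung lay below the lowest sham lung, and Ighd fell by 0.50 on the log2 scale (standard error 0.12, adjusted p = 0.00712 from limma). Tnfrsf13c, the receptor of the B cell survival factor BAFF, was 1.87 FPKM in IncPBF lung 1, 1.02 to 1.34 FPKM in IncPBF lungs 2 to 5 and 1.82 to 1.93 FPKM in sham pups. IncPBF lung 1 thus lay within the sham range, as it did for Cd3e, and the log2 fold change was -0.51 (adjusted p = 0.0202 from limma). Cd22, an inhibitory coreceptor, fell by 0.43 (adjusted p = 0.0144 from limma). Ighm and Igkc, the most abundant antibody genes of the list, were 37.5 ± 2.36 against 42.2 ± 5.58 FPKM and 36.4 ± 5.53 against 45.1 ± 8.29 FPKM, and were not called (adjusted p = 0.185 and 0.118 from limma).

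Of 8 plasma cell genes 2 were tested and 0 called (lowest adjusted p = 0.643 from limma, 0 at an unadjusted p under 0.05). Of 20 cytotoxic and NK cell genes 6 were tested, and 2 of these were called, in opposite directions. Gzmm, the gene of granzyme M, was 0.492 to 0.761 FPKM in IncPBF pups and 0.681 to 1.35 FPKM in sham pups, and fell by 0.66 on the log2 scale (adjusted p = 0.0245 from limma). S1pr5, a receptor that lets NK cells leave tissues, was 0.809 to 1.13 FPKM in IncPBF pups and 0.398 to 0.689 FPKM in sham pups without overlap, and rose by 0.71 (adjusted p = 0.0101 from limma). Gzmm rests on 13 to 38 fragments per lung and S1pr5 on 19 to 52.

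**Figure D4:**
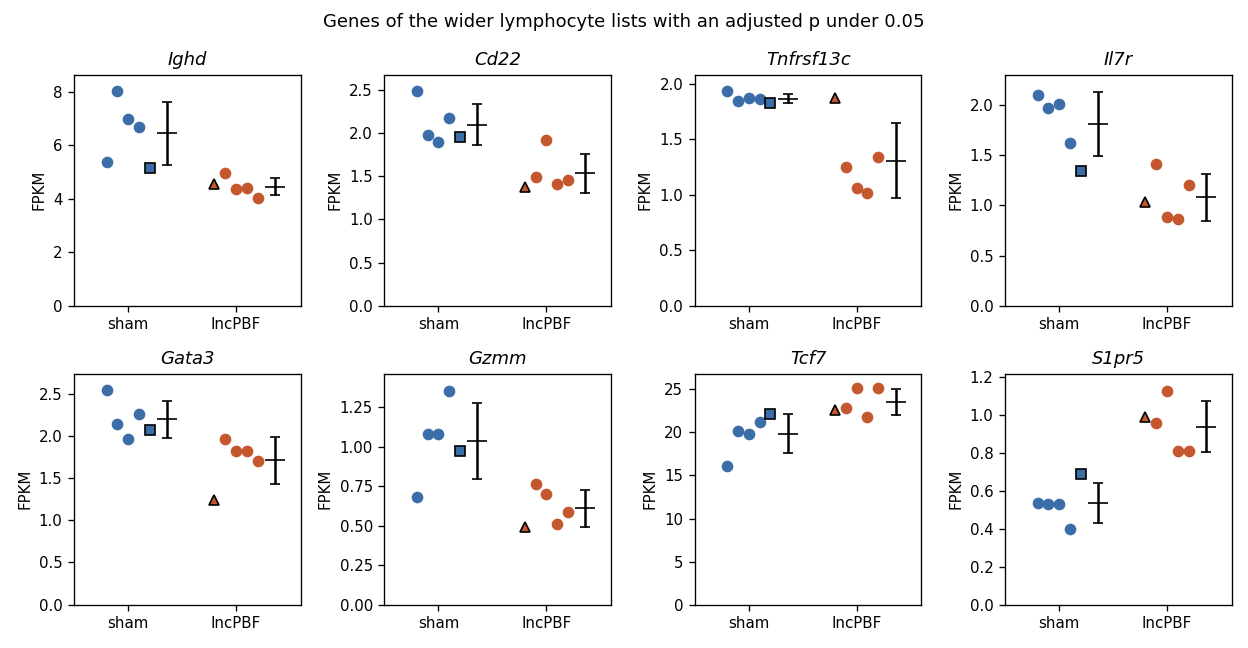
FPKM in each lung of the 8 genes of the wider lymphocyte lists called in limma (sham blue, IncPBF orange, mean and SD in black, n = 5 per group; triangle, IncPBF lung 1; square, sham lung 5). The groups do not overlap for Ighd and S1pr5, and IncPBF lung 1 lies within the sham range for Tnfrsf13c.

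Ptprc, which encodes the surface protein CD45 of all white blood cells, was 3.42 ± 0.505 FPKM in IncPBF pups and 3.32 ± 0.468 FPKM in sham pups (SD, n = 5 per group, log2 fold change 0.04, adjusted p = 0.833 from limma). Ratios of a pair of genes within a lung depend little on how the lung was scaled, and 5 were compared by exact two-sided permutation over every way to divide the 10 lungs. The log2 ratio of Cd3e to Ptprc was -2.34, -2.76, -2.36, -2.26 and -2.50 in IncPBF lungs 1 to 5 and -2.26, -1.96, -1.90, -2.10 and -2.14 in sham lungs 1 to 5. The highest IncPBF lung lay below the lowest sham lung, though IncPBF lung 4 (-2.261) and sham lung 1 (-2.257) nearly met. IncPBF lung 1 had the highest Ptprc of the 10 lungs, 4.25 FPKM, while its Cd3e, 0.761 FPKM, lay within the sham range. The T cell receptor genes Cd3d, Cd3g and Cd247 were not set against Ptprc, and their own log2 fold changes were -0.08, -0.20 and 0.0011. The difference was -0.37, with an exact permutation p of 0.00794, the smallest this design allows, and 0.0397 after Benjamini-Hochberg adjustment over the 5 ratios. With a pseudocount of 1 it was -0.17 with an adjusted exact permutation p of 0.119, and with any 1 lung other than IncPBF lung 4 or sham lung 1 left out the adjusted exact permutation p was 0.0794. The ratio of Cd79a to Ptprc differed by -0.26 and that of Nkg7 to Ptprc by 0.02, with adjusted exact permutation p values of 0.179 and 0.952. Between lineages, the ratio of Cd3e to Cd79a differed by -0.11 (adjusted exact permutation p = 0.615), and the ratio of Cd8a to Cd4 by 0.32 (adjusted exact permutation p = 0.251).

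**Figure D5:**
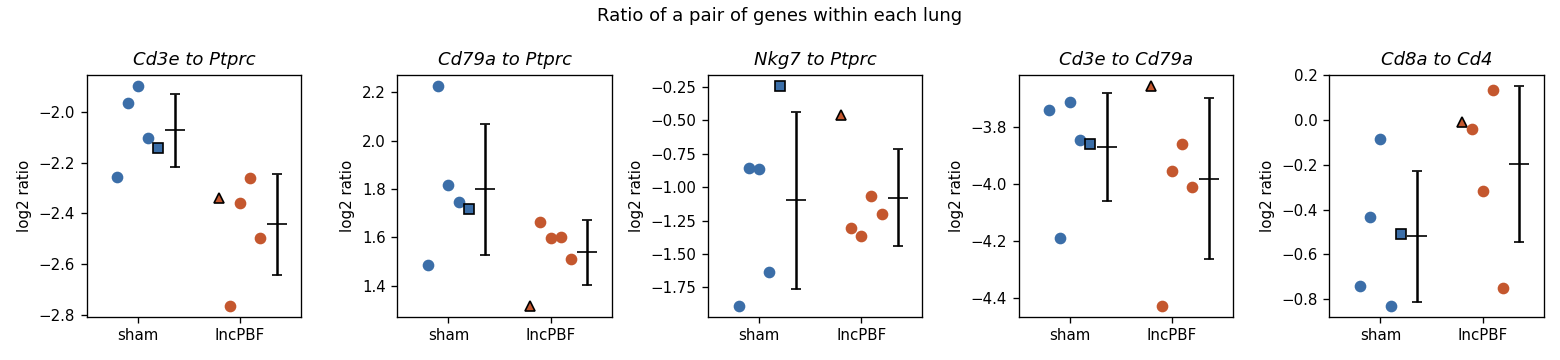
Log2 ratio of a pair of genes within each lung, from FPKM + 0.1 (sham blue, IncPBF orange, mean and SD in black, n = 5 per group; triangle, IncPBF lung 1; square, sham lung 5). The groups part for Cd3e to Ptprc, between -2.261 and -2.257, and overlap for the other 4 ratios.

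Each role was also compared with all genes tested, by the root mean square difference of log2 values centred on the mean of the 10 lungs. The B cell profile, the mean of Ms4a1, Cd79a and Cd79b, had Ighm (0.0906) and Pax5 (0.0921), the transcription factor that fixes B cell identity, among its 5 nearest genes, with 2610044O15Rik8 (0.0876), Maob and Lmbr1, where the median gene lay at 0.272. The T cell profile of Cd3d and Cd3e had Vamp8 (0.0714), Stxbp3, D030056L22Rik, Elmod2 and Arl4a nearest, none of them on a lymphocyte list. The gene nearest the cytotoxic profile of Nkg7 and Gzma, H2-Q4, lay at 0.405, where the median gene lay at 0.715. This profile varied more between lungs, with a root mean square of 0.684 against 0.193 for B and 0.168 for T cells, so the distances of the 3 profiles are not on 1 scale. Gzmb and Gzmk lay under the minimum mean FPKM and were not searched. H2-Q4, of the MHC class I family, whose close copies may share reads, was 47.7 FPKM in IncPBF lung 1, 30.2 FPKM in sham lung 5 and 21.01 to 25.1 FPKM elsewhere. Tap1, which loads peptides for MHC class I and was also among the 5 nearest, was 19.1 FPKM in IncPBF lung 1 but 8.31 FPKM in sham lung 5, with 5.62 to 7.89 FPKM elsewhere.

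Marker lists of other cells were read in the same fit, where 16.2% of the 15388 genes tested were called lower and 16.1% higher. Of the genes of immature lymphocytes, Ptcra, a receptor chain of thymocytes, had at most 1 fragment in any lung and Rag2 at most 3, while Rag1 had 8 to 42. Cd1d1, the only gene of that list that was tested, rose by 0.24 on the log2 scale, from 7.17 ± 0.397 to 8.46 ± 0.518 FPKM without overlap (adjusted p = 0.0117 from limma), and other lung cells use it too. Of 10 genes of all white blood cells 1 (Cytip) fell and 1 (Cd52) rose, and of 10 macrophage genes 1 (Ccr2) rose, from 2.12 ± 0.580 to 3.34 ± 0.563 FPKM. Ccr2 is also a gene of monocytes. At an unadjusted p under 0.05 in limma, 3 of the 10 macrophage genes were lower and 1 higher. The shares of all genes tested were 21.4% and 21.7%. The 3 lower genes were Siglecf, Mrc1 and C1qa, chosen after their values were seen, at -0.56, -0.44 and -0.30 on the log2 scale. After adjustment in limma, p was 0.0708 for Siglecf, 0.0784 for Mrc1 and 0.0727 for C1qa. Of the 10 genes, 6 had a negative and 4 a positive log2 fold change, among them Chil3 at 0.57. Of 5 dendritic cell genes tested, Clec9a fell by 0.88 and Zbtb46 by 0.38 on the log2 scale (adjusted p = 1.74e-05 and 0.00115 from limma). In all 4 had a negative log2 fold change, and Itgax was at 0.03. Under the minimum mean FPKM, Xcr1 was 0.528 FPKM in IncPBF pups and 0.465 in sham pups, Flt3 0.344 and 0.396, and Siglech 0.207 and 0.355. Clec9a, at 11.3 against 20.8 FPKM, stood far above these, and the 2 calls were not read as a change in dendritic cells. Of 3 mast cell and basophil genes tested, Cma1 and Mcpt4 rose by 1.41 and 0.91 (adjusted p = 0.00448 and 0.0421 from limma). Cma1 rests on 6 to 47 fragments per lung and Mcpt4 on 3 to 26. Cpa3, at 2.05 against 1.70 FPKM, was not called (log2 fold change 0.23, adjusted p = 0.416 from limma). Of 4 tested genes of type 2 innate lymphoid cells, Areg and Arg1 rose by 1.37 and 0.67 and Rora fell by 0.50 (adjusted p = 0.00204, 0.0489 and 0.0104 from limma), and other lung cells use these 3 genes too. None of 6 neutrophil and 4 platelet genes tested was called, nor were any at an unadjusted p under 0.05. The summed FPKM of the macrophage list was 85.6 to 401 in IncPBF pups and 108 to 369 in sham pups, and its part in the lymphocyte values was not tested.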

How the data were processed

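The authors deposited 1 table of FPKM for 54532 genes in 10 lungs, with the gene length in bases. Libraries were NEBNext Ultra on NovaSeq; the submitters' processing notes name Bowtie 0.12.2 and, with no role given, hg38, GRCm38 and mm10. The counting software is not given in the sources used here. Of 54495 genes also in GENCODE M21, 98.3% had its GRCm38 coordinates, as did all 9 members. The 5 IncPBF columns carry other names than the titles and were assigned to the group only.

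FPKM times length was a whole multiple of 1 step (within 0.05 fragments) for 100% of values in every lung, which gave back fragments. A gene entered the test at a mean FPKM of 0.5 or more over the 10 lungs. Values of log2(FPKM + 0.1) were fitted by limma 3.58.1 (lmFit, eBayes with trend) in R 4.3.3, all 10 lungs, no covariate, with Benjamini-Hochberg adjustment over 15388 genes. The fit was tested on simulated data with known changes. Members and lists were chosen with earlier results of these data known. Beyond the members, text names up to 3 called genes per list and direction, set defining markers, and the 5 nearest genes per profile. Scgb1a1 was chosen after its values were seen. Alternatives covered pseudocount, filter, scaling, replicate block, trend, limma-voom, Xist, chromosomes X and Y, and leaving out lungs. No batch is given in the labels. Figures and motifs used Python 3.11.15, pandas 2.3.3 and matplotlib 3.10.9. Without molecular identifiers, fragments are not counts of separate molecules, so ratios to counting variance take in counting error alone. Whether counting used strand is not given either.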

Additional observations from a re-analysis of the deposited data

Results flagged for a closer look

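In 4 of 28 sets of 5 lungs examined, 1 lung lay far from the rest, with a gap to the nearest lung above 0.71 of the range of its group, which chance gives in about 1 in 20 sets. Gzma was 6.376 FPKM in IncPBF lung 1 against 1.076 to 1.383 in the other IncPBF lungs. Nkg7 was 3.056 FPKM in the same lung against 1.184 to 1.423. Cd4 was 1.493 FPKM in IncPBF lung 5 against 0.834 to 0.913 in the others of its group. Cd79a was 14.53 FPKM in sham lung 2 against 10.56 to 11.67 in the other sham lungs.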

How the results depend on the processing

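The log2 fold changes of Cd3d, Cd4, Cd8a, Ms4a1, Cd79a, Cd79b and Gzma kept their sign in all alternatives in which they were tested. That of Cd3e was 0.0743 with log2 Xist as a covariate, and that of Nkg7 lay between -0.18 and 0.25 with 1 lung left out. That covariate moved Nkg7 from 0.05 to 0.99 and Gzma from 0.48 to 2.29. Its fit in effect sets IncPBF lung 1, the only IncPBF lung without Xist, against the sham lungs. That lung lay above the sham mean by 2.31 for Gzma, 0.99 for Nkg7 and 0.09 for Cd3e on the log2 scale. Of the members, 1 was called lower in place of 0 with the replicate block (Cd79a, adjusted p = 0.0473 from limma) and in limma-voom (Cd4), and 0 to 1 with 1 lung left out (Cd4 or Ms4a1); 0 were called higher in any. The members without overlap numbered 0 to 1 with 1 lung left out. Lungs of the same number did not deviate together (correlation across genes -0.0675 to 0.0854), so the block adds no known pairing. Of the wider lists, 4 to 9 genes were called lower in place of 6 in the alternatives other than log2 Xist as a covariate, with 4 at a mean FPKM of at least 1 or without sham lung 2 and 9 with quantile normalization or without sham lung 3, and 1 gene was called higher in place of 2 with a mean FPKM of at least 1, with no filter and without the trend, and 1 to 2 with 1 lung left out, while log2 Xist as a covariate left 1 lower and 0 higher. The calls lost with log2 Xist were lost in a fit that rests in effect on IncPBF lung 1. The cause of the other changes was not tested. The difference in the log2 ratio of Cd3e to Ptprc was -0.17 with a pseudocount of 1 and -0.42 to -0.29 with 1 lung left out (adjusted exact permutation p 0.0198 to 0.0794). With 1 lung left out the ratio of Cd79a to Ptprc differed by -0.34 (without sham lung 1, adjusted exact permutation p = 0.0198) to -0.15, that of Nkg7 to Ptprc by -0.18 to 0.23, and that of Cd3e to Cd79a by -0.19 to 0.00022; with a pseudocount of 1 the last was 0.0625. Counting error is near the whole spread between lungs for Cd8a, at 48 to 68 fragments in a lung, and Cd3d, at 42 to 62. The spread of Cd4, Ms4a1, Cd79b, Nkg7 and Gzma was larger than counting gives in both groups. The ratio of observed to counting variance of Ms4a1 was 9.43 in IncPBF and 9.01 in sham lungs. That of Cd79a was 1.44 and 6.00, and that of Cd3e 2.36 and 0.271.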
